A study of Mus musculus with 11 samples.

Results

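LZ GC B cells of mice with the V394D mutation of Myc (Myc_VD) were compared with those of mice with wild-type Myc (Myc_WT) across the protein-coding genes of the nuclear genome. The members were the libraries that the labels give as light zone and as 1 of the 2 genotypes, 4 of Myc_VD and 4 of Myc_WT, which are 8 of the 11 libraries of the series. Of 48795 genes in the deposited table, 21759 were protein-coding and nuclear. Each library was rescaled so that these genes sum to 1000000, and 8987 genes were tested, those whose mean over the 8 libraries reached 5 rescaled TPM. All mice were females of 8 to 12 weeks of age on the C57BL/6 background, and all were immunized i.v. with SRBC, a T cell-dependent antigen. The labels give 50000000000 SRBC in 200 µl of PBS per mouse, whereas the methods of the study give a lower dose. Spleens were taken 10 days later. B cells were enriched by CD43 depletion, red blood cells were lysed, and cells that were B220+ CD138neg IgDneg CD38neg Fas+ CD86high CXCR4low were sorted. Each library held the RNA of 1 mouse, amplified with a Nugen cDNA kit and sequenced on an Illumina HiSeq. The mice are named in 3 series, Myc_WT mice 1 to 3 in 1, Myc_WT mouse 4 in another and all Myc_VD mice in a further one. The labels do not say what a series stands for, and genotype and series cannot be told apart.

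MYC pairs with MAX on E boxes and activates genes of growth, ribosome assembly and metabolism, and it also binds MIZ1, encoded by Zbtb17, and then represses genes that MIZ1 activates. The V394D mutant of MYC can no longer bind MIZ1 but still pairs with MAX. Myc_VD mice have it as a germline mutation of Myc, so all their cells carry it. In the GC, B cells proliferate and mutate their immunoglobulin genes in the dark zone (DZ) and compete for antigen and for T cell help in the LZ, where a small share of the cells induces MYC and re-enters the cell cycle. The comparison asks how the expression of LZ B cells changes when MYC–MIZ1 complexes cannot form.

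The Myc_VD libraries were less alike than the Myc_WT libraries. Protein-coding nuclear genes took 46.9 to 57.5% of the deposited TPM in Myc_WT and 30.7 to 47.7% in Myc_VD. Of the genes tested, 6 to 21 were listed at 0 in each Myc_WT library and 19 to 176 in each Myc_VD library, with 176 in Myc_VD mouse 2. Across genes, libraries correlated with r from 0.925 to 0.974 within Myc_WT, from 0.793 to 0.886 within Myc_VD and from 0.822 to 0.922 between genotypes. The predicted gene Gm10800, picked with its values in view, was at 62912 rescaled TPM in Myc_WT mouse 4, 936 in Myc_VD mouse 4 and at most 1763 in the other mice. TPM keep no depth, so the reads behind a value are unknown, and the spread between mice is the only measure of error. In bulk RNA, fewer cells of a type and less RNA per cell cannot be told apart.

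Myc itself (chromosome 15, 61985391 to 61990374 of GRCm38) was at 64.9, 67.4, 78.5 and 65.5 rescaled TPM in the Myc_WT mice and at 140, 115, 63.0 and 144 in the Myc_VD mice. Myc_VD mice 1, 2 and 4 were above all Myc_WT mice, while mouse 3 was below them. The log2 difference was 0.67 with a standard error of 0.26 (unadjusted p = 0.0251, adjusted p = 0.301 from limma; exact permutation p = 0.143). TPM do not tell the mutant allele from the wild-type allele. Max differed by 0.38 and Zbtb17 by 0.05, with adjusted p of 0.498 and 0.98. Ptprc, which encodes CD45 and as an isoform B220, was at 1888 to 2235 in Myc_WT and 2246 to 2972 in Myc_VD, and Cd86 at 413 to 564 and 442 to 573. Cd38 was at 22.8 to 31.6 and 14.7 to 46.2. Sdc1, which encodes CD138, was at or below 0.21 in 7 libraries and at 15.3 in Myc_VD mouse 3. Fas and Cxcr4 differed by 0.19 and -0.10.

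Only 1 gene passed the adjusted threshold. At an adjusted p under 0.05, limma called 0 of 8987 genes higher in Myc_VD (0%) and 1 lower (0.0111%). At an unadjusted p under 0.05, 659 genes were higher (7.33%) and 535 lower (5.95%), and the values of the genotypes did not overlap for 455 genes that were higher (5.06%) and 306 that were lower (3.4%). These shares are the background for each gene list below. The exact permutation test of 4 mice against 4 reaches 0.0286 at the lowest, which it gives to every gene whose genotypes do not overlap. Over all genes the median log2 difference was 0.03. In TPM as deposited, that is without the removal of noncoding and mitochondrial RNA, this median was -0.33 and the unadjusted calls were 65 higher and 1541 lower. Quantile normalization gave 589 higher and 743 lower, and removal of Gm10800, Gm10801 and Lars2 gave 611 higher and 592 lower. For part of the lists, medians are also given relative to the median of all genes.

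The called gene was Rpl30 (chromosome 15, 34440505 to 34443640), a protein of the large ribosomal subunit. It was at 2162, 2354, 2481 and 2162 rescaled TPM in Myc_WT and at 666, 1134, 880 and 771 in Myc_VD. The highest Myc_VD mouse was at 0.524 of the lowest Myc_WT mouse, and Rpl30 fell by 1.43 on the log2 scale (standard error 0.16, limma adjusted p = 0.013). The call did not hold without any 1 of the 4 Myc_WT mice, nor without Myc_VD mouse 3 or 4, where the adjusted p lay between 0.0543 and 0.0971. Without Myc_VD mouse 1 it was 0.0272 and without Myc_VD mouse 2 it was 0.00229. After a correction for GC content and length it was 0.102. The log2 difference was -1.21 after this correction and between -1.32 and -1.57 in the 8 fits without 1 mouse. Ribosomal protein genes have many near-identical pseudogene copies, and reads shared with these cannot be assigned with certainty.

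Behind Rpl30, 6 genes had an adjusted p between 0.05 and 0.06. Phf21a and Lars2 among these, and the comparison of the 6, were picked with their values in view. Lsm5 (chromosome 6, 56701063 to 56704710), a subunit of the Sm-like ring that binds U6 and decaying mRNA, was at 91.5, 163, 130 and 138 in Myc_WT and at 43.0, 48.5, 28.8 and 24.5 in Myc_VD (log2 difference -1.85, adjusted p = 0.0539). Fam53b was at 33.7, 30.8, 31.6 and 29.9 in Myc_WT and at 64.7, 101, 100 and 121 in Myc_VD, a log2 difference of 1.55 (adjusted p = 0.0539). All Myc_VD mice lay below all Myc_WT mice for Lsm5 and above them for Fam53b. Phf21a, a reader of unmethylated histone H3, had a log2 difference of 1.09 (adjusted p = 0.0539). Irf2, a transcription factor of the interferon response, was at 154 to 205 in Myc_WT and 338 to 412 in Myc_VD (0.99, adjusted p = 0.0588). Lars2, the mitochondrial leucyl-tRNA synthetase, differed by 1.10 (adjusted p = 0.0588). Lars2 was also left out, with Gm10800 and Gm10801, in an alternative chosen after the data were seen. What the reads given to Lars2 stand for was not tested. Zfp781, a zinc finger gene, was at 6.75, 27.9, 16.4 and 16.9 in Myc_WT and was listed at 0 in all 4 Myc_VD libraries. An exact 0 can be a failed estimate, so no fold is given.

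Among genes with an unadjusted p under 0.05 and genotypes that did not overlap, the largest differences up were those of Gnrh1, Cln6, Dmd, Kantr and Zfp12, of which all but Kantr were below 8 rescaled TPM in every Myc_WT mouse. Gnrh1, Cln6 and Dmd had Myc_WT means of 2.47, 4.42 and 1.09 and passed the minimum mean of 5 only through Myc_VD, so a difference up was fixed by the filter for these 3. Kantr was at 9.32, 13.2, 12.7 and 8.40 in Myc_WT and at 44.9, 31.8, 92 and 38.6 in Myc_VD (2.05, adjusted p = 0.0844). Mark2, a kinase of microtubule-associated proteins, was at 104 to 284 in Myc_WT and at 388 to 935 in Myc_VD (1.57). The largest difference down after Zfp781 was that of Polr2k (chromosome 15, 36174010 to 36177010), a small subunit shared by RNA polymerases I, II and III. It was at 67.9, 70.9, 66.8 and 68.5 in Myc_WT and at 7.86, 0, 15 and 2.47 in Myc_VD (-3.88, adjusted p = 0.0844). The Myc_WT mice were within 6.14% of each other, while all Myc_VD mice were far below them and spread widely. Rnaseh1, which removes RNA from RNA–DNA hybrids, was at 27.2, 27.4, 16.5 and 13.4 in Myc_WT and at 3.16, 6.74, 2.83 and 7.10 in Myc_VD (-1.91). Like Zfp781, Rnaseh1 passed the minimum mean of 5 only through Myc_WT, so a difference down was fixed by the filter.

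**Figure D1:**
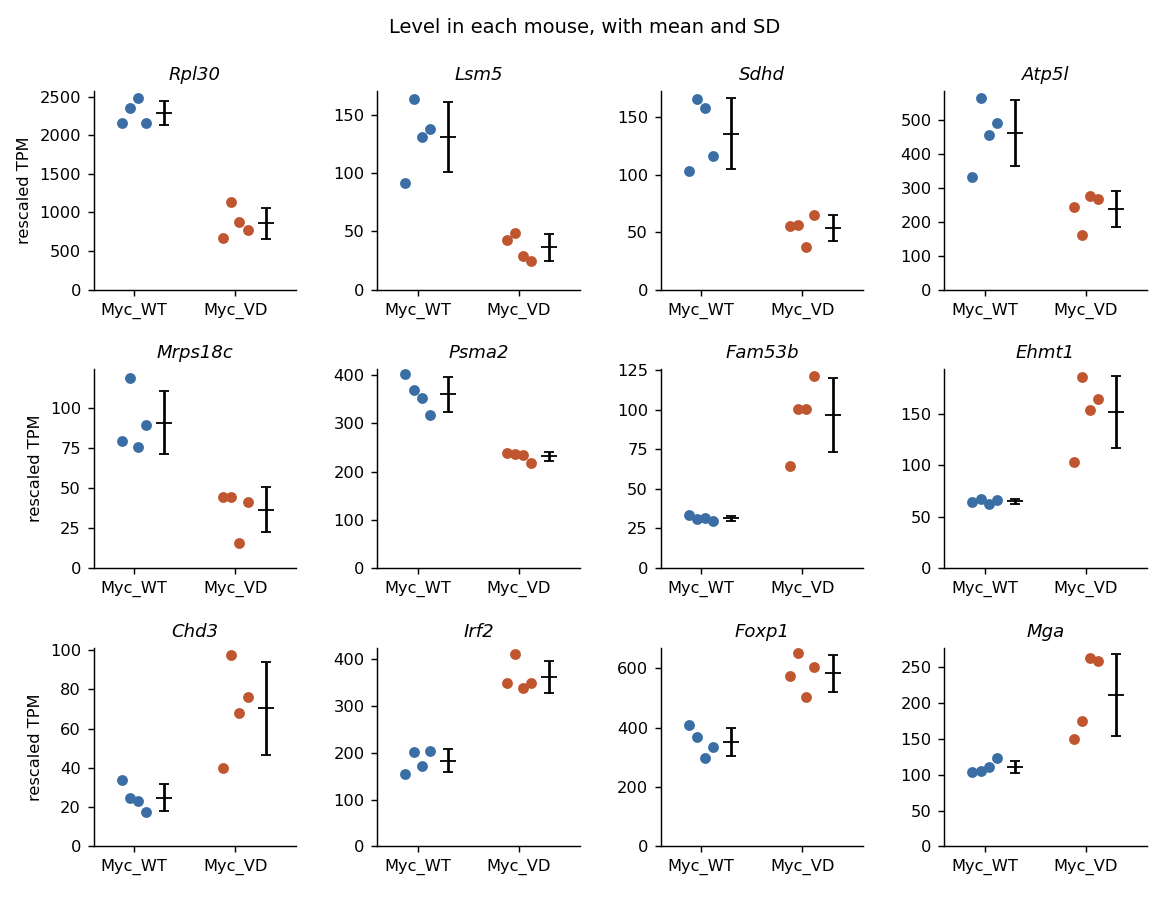
Rescaled TPM of 12 genes in each mouse, Myc_WT in blue and Myc_VD in orange, with the mean and SD of 4 mice in black and each vertical axis starting at 0. The genotypes do not overlap for any of the 12 genes; Rpl30 (-1.43) alone passed an adjusted p of 0.05.

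Across genes, differences varied with transcript length. Over 8980 genes, the log2 difference correlated with transcript length with a Spearman coefficient of 0.218, and with GC content with 0.142, and over 8987 genes with level with 0.059; these are descriptions across genes, which are not independent and share their libraries. In 8 classes of equal size by length, the median difference was -0.11 for transcripts of up to 793 bases and -0.14 for the next class, and 0.18 for transcripts of at least 4398 bases. At an unadjusted p under 0.05, the shortest class had 92 genes higher and 135 lower, and in the longest class 123 were higher and 15 lower. After a loess correction for GC content and length, the class medians lay between -0.02 and 0.03, with 560 genes higher and 459 lower. By mouse, the median deviation of the longest class from the mean of all libraries was 0.01, -0.12, -0.09 and -0.15 on the log2 scale in Myc_WT and 0.08, 0.00, 0.04 and 0.29 in Myc_VD, so that Myc_VD mouse 4 stood highest and Myc_WT mouse 1 lay within the range of Myc_VD. That of the shortest class was 0.04, 0.11, 0.09 and -0.03 in Myc_WT and 0.01, -0.14, 0.02 and 0.04 in Myc_VD, with overlap and with Myc_VD mouse 2 lowest. For the lists in which the results are described most fully, the median after this correction is given too, with the counts where they changed by more than 1.5 times. Whether length itself or the genes that happen to be short or long move with genotype was not tested.

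**Figure D2:**
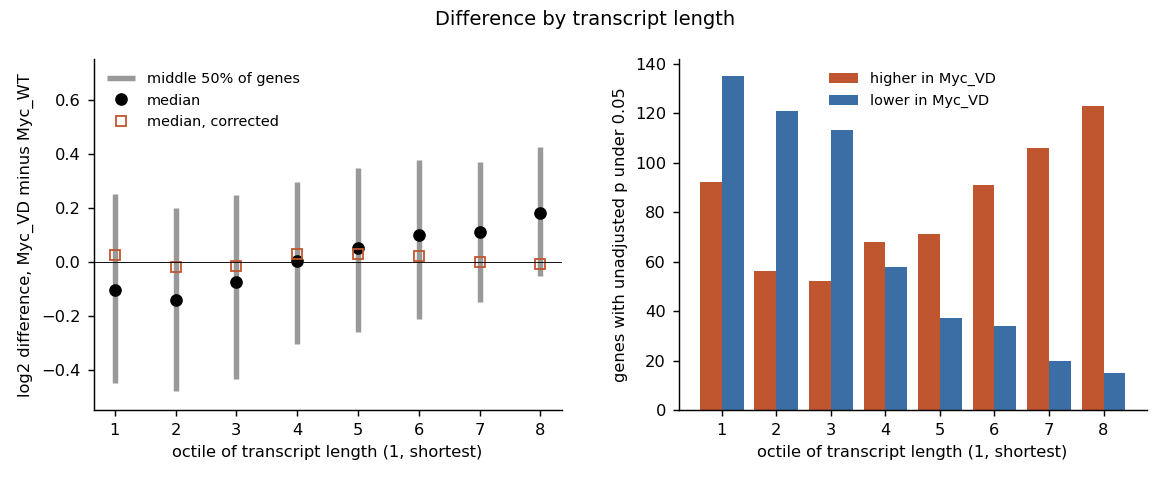
Left, log2 difference by class of transcript length, from class 1 (shortest) to class 8 (longest), with medians as black points, the middle 50% of genes as grey bars and medians after correction as open squares. Right, genes with an unadjusted p under 0.05 per class, which change from 92 higher and 135 lower in class 1 to 123 higher and 15 lower in class 8.

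Of 66 gene lists, 36 had a median above and 30 a median below that of all genes. When each mouse was left out in turn, 26 lists stayed above and 26 stayed below in all 8 fits. The lists with the lowest medians were ATP synthase, complexes III and IV, complex I, mitochondrial ribosomal proteins and the proteasome. Behind them, RNA polymerase I and III, mitochondrial import, glycolysis and nucleotide and one-carbon synthesis also had a median below -0.2. The highest medians, apart from short marker lists of other cell types, were those of histone genes, immediate early genes and the MYC network. Chromatin remodelers and B cell transcription factors came next.

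**Figure D3:**
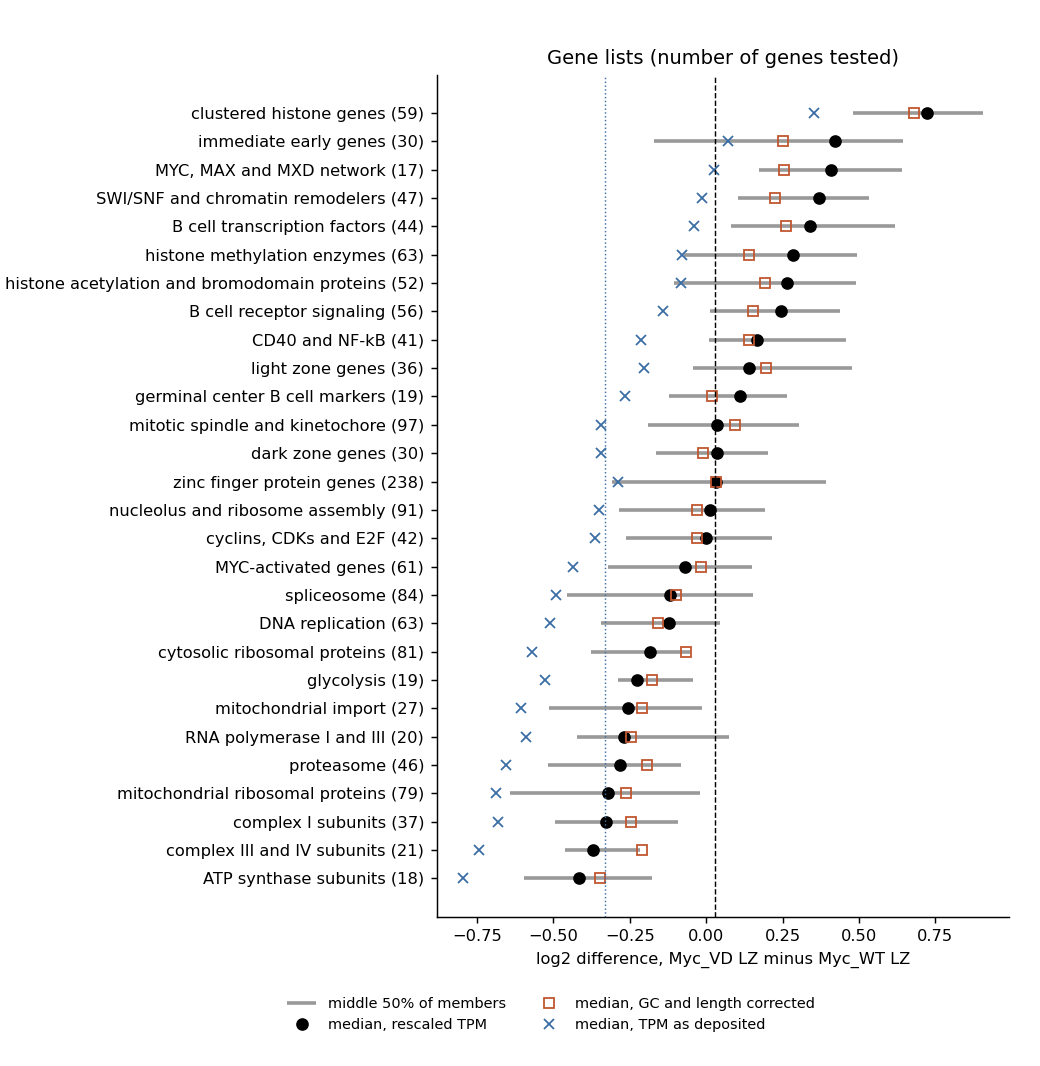
Median log2 difference (Myc_VD minus Myc_WT) of 28 gene lists on rescaled TPM (black points, with the middle 50% of members as grey bars), after GC and length correction (squares) and on TPM as deposited (crosses), with the number of genes tested in parentheses. The dashed line marks the median of all genes on rescaled TPM (0.03) and the dotted line that on TPM as deposited (-0.33), where chromatin remodelers (-0.01), B cell transcription factors (-0.04), histone methylation enzymes (-0.08), B cell receptor signaling (-0.14) and light zone genes (-0.20) fall below 0 while remaining above the dotted line.

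Of 76 nuclear subunits of complexes I, III and IV and of ATP synthase, 64 had a negative and 12 a positive difference, and at an unadjusted p under 0.05, 21 were lower and 0 higher, with a median of -0.37 (-0.40 relative to all genes). After GC and length correction 8 of the 76 were lower and 0 higher, with a median of -0.25. The sum over the 76 genes was 18157, 22137, 21176 and 18150 in Myc_WT and 16614, 16282, 16683 and 15535 in Myc_VD, without overlap. ATP synthase, which makes ATP from the proton gradient of the inner mitochondrial membrane, had the lowest median of the 66 lists, with 9 of 18 genes lower, 0 higher and a median of -0.42 (5 lower and a median of -0.35 after correction). Atp5l, subunit g of the membrane part of the enzyme, was at 333, 566, 457 and 492 in Myc_WT and at 245, 161, 278 and 268 in Myc_VD (log2 difference -0.96, standard error 0.21, limma adjusted p = 0.129). Usmg5, a small protein that holds ATP synthase dimers together, was at 214, 288, 194 and 293 in Myc_WT and at 110, 143, 132 and 157 in Myc_VD (-0.85). Both genes were lower in every Myc_VD mouse than in any Myc_WT mouse, as were Atp5g2 and Atp5f1 (-0.62 and -0.60). The summed level of the 18 genes was 9278, 10380, 10572 and 8238 in Myc_WT and 8342, 7898, 7130 and 7744 in Myc_VD, so that Myc_WT mouse 4 lay within the range of Myc_VD.

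The promoters of ATP synthase genes that hold an E box are shown because MYC–MAX binds this motif and the list had the lowest median; they were picked with the values in view. The letters CACGTG, which read the same on both strands, were searched in the 250 bases upstream of the start of each gene that RefSeq gives on GRCm38.p6. Of 14 ATP synthase genes with a promoter in the table, 4 held the motif (28.6%), against 645 of 7192 genes tested (8.97%) and 1633 of 27025 promoters in all (6.04%). Other lists searched were MYC-activated genes with 9 of 53 (17%), chromatin remodelers with 4 of 34 (11.8%), histone methylation enzymes with 4 of 48 (8.33%), B cell transcription factors with 3 of 36 (8.33%), mitochondrial ribosomal proteins with 5 of 69 (7.25%) and the nucleolus list with 5 of 76 (6.58%). The motif was in 39 of 494 promoters of genes that were higher at an unadjusted p under 0.05 (7.89%) and in 37 of 423 of those that were lower (8.75%). Among genes whose genotypes did not overlap, it was in 23 of 349 that were higher (6.59%) and 25 of 240 that were lower (10.4%). Each sequence is written on the strand of its gene and ends at the base before the start, with the motif in capitals. The minus strand was that of all 4 genes, Atp5g1 at chr11:96075632-96075881, Atp5g3 at chr2:73911327-73911576, Atp5l at chr9:44920743-44920992 and Atpif1, the inhibitor of ATP synthase, at chr4:132535415-132535664.
Atp5g1: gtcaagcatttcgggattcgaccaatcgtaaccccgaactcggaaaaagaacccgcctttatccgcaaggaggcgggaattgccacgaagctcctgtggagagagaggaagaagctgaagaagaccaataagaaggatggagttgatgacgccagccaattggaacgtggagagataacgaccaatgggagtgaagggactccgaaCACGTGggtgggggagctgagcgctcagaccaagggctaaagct
Atp5g3: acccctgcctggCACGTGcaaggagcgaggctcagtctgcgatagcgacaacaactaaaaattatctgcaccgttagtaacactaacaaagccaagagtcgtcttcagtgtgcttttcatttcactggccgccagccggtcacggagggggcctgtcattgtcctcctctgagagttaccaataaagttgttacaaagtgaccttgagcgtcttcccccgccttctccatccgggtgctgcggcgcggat
Atp5l: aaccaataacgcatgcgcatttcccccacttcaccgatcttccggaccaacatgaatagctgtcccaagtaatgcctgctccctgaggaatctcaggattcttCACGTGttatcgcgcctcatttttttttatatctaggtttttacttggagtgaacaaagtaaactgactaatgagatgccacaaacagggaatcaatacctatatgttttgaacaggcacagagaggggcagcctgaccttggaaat
Atpif1: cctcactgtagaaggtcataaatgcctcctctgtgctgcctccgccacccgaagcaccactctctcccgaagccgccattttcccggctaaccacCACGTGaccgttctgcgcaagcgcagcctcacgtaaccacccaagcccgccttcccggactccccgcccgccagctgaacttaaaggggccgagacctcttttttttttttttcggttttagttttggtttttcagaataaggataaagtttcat
Atp5l and Atp5g3, subunit c of the proton channel, were lower with genotypes that did not overlap, whereas Atpif1 had the highest difference of the list, 0.28. A match is a description of the letters and says nothing of binding.

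Complex I, which feeds electrons from NADH into the respiratory chain, had 8 of 37 genes lower and 0 higher, with a median of -0.33 (3 lower and a median of -0.24 after correction, and -0.20 without Myc_VD mouse 4). Ndufa9 was at 108, 121, 125 and 99.4 in Myc_WT and at 65.2, 74.1, 45.9 and 71.1 in Myc_VD (-0.83). Complexes III and IV, which pass electrons on to oxygen, had 4 of 21 lower and 0 higher and a median of -0.37 (-0.21 after correction, with 0 of the 21 then at an unadjusted p under 0.05). Cox6c of complex IV was at 327 to 676 in Myc_WT and 263 to 389 in Myc_VD (-0.66), and the genotypes overlapped. In the tricarboxylic acid cycle 2 of 21 genes were lower and 0 higher (median -0.18, but -0.34 without Myc_WT mouse 4 and -0.068 without Myc_WT mouse 1). Sdhd, a membrane anchor of succinate dehydrogenase, which is also complex II, was at 103, 165, 157 and 116 in Myc_WT and at 55.6, 56.3, 37.4 and 64.5 in Myc_VD (-1.32, adjusted p = 0.0844). Dld, the E3 subunit of the pyruvate and oxoglutarate dehydrogenase complexes, differed by -0.83. Of 27 genes of mitochondrial protein import, 3 were lower (median -0.25, -0.15 without Myc_WT mouse 2). Of 19 genes of glycolysis 0 were called in either direction (median -0.23, but -0.075 without Myc_WT mouse 3).

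Mitochondrial ribosomal proteins, which translate the subunits encoded by mitochondrial DNA, had 15 of 79 genes lower and 1 higher, with a median of -0.32 (-0.26 after correction). Mrps18c was at 79.1, 119, 75.2 and 89.1 in Myc_WT and at 44.5, 44.2, 15.7 and 41.3 in Myc_VD (-1.38, adjusted p = 0.139). Mrpl41 and Mrps14 differed by -1.25 and -0.68 with genotypes that did not overlap. Summed over the 79 genes, Myc_WT ranged from 4923 to 5776 and Myc_VD from 4495 to 4926, an overlap of 2.95 rescaled TPM.

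Cytosolic ribosomal proteins had 23 of 81 genes lower and 2 higher, and 67 of the 81 differences were negative. The median was -0.18, but -0.06 after GC and length correction, when 11 were lower and 3 higher, and -0.06 relative to all genes under quantile normalization. The small subunit had 13 of 32 genes lower and 0 higher (median -0.27, -0.14 after correction) and the large subunit 10 of 47 lower and 1 higher (-0.16, -0.03 after correction, -0.094 without Myc_WT mouse 2), and after correction 8 and 3 were lower. Rps27l, a p53-induced relative of Rps27, was at 209, 274, 211 and 200 in Myc_WT and at 68.7, 138, 90.1 and 97.5 in Myc_VD (-1.21, adjusted p = 0.0875). Rps10 and Rps3a1, both of the small subunit, differed by -0.68 and -0.59 with genotypes that did not overlap. Rpl29, of the large subunit, differed in the opposite direction, by 0.59.

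The nucleolus and ribosome assembly list, the processing factors that MYC is known to activate, stayed near the median of all genes. Of its 91 genes 2 were higher and 3 lower, with a median of 0.01, or -0.01 relative to all genes, and the median was -0.085 without Myc_WT mouse 4 and 0.029 without Myc_WT mouse 3. Likewise 4 of 61 MYC-activated genes were higher and 2 lower, with a median of -0.07 (-0.10 relative to all genes, and 3 higher and 5 lower after correction), and the median was -0.13 without Myc_VD mouse 1 and 0.014 without Myc_VD mouse 3. Cad, which carries the first steps of pyrimidine synthesis, was at 53, 36.4, 45.3 and 28.8 in Myc_WT and at 67.9, 114, 102 and 70.6 in Myc_VD (1.10, adjusted p = 0.139). Ipo4, an importin, differed by 0.84, and every Myc_VD mouse was above every Myc_WT mouse for both genes. Slc19a1, the reduced folate carrier, was at 4.74 to 21.3 in Myc_WT and at 0.55 to 6.38 in Myc_VD (-1.74), and the genotypes overlapped. RNA polymerase I and III subunits had 1 of 20 lower, a share below that of all genes, and a median of -0.27 that was -0.45 without Myc_VD mouse 1 and -0.09 without Myc_VD mouse 2. Nucleotide and one-carbon synthesis had a median of -0.21 with 5 of 40 lower and 1, Cad, higher.

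The proteasome had 10 of 46 genes lower and 1 higher, with a median of -0.28 (-0.19 after correction, -0.18 without Myc_VD mouse 3). Psma2, a subunit of the outer ring of its core, was at 403, 370, 353 and 317 in Myc_WT and at 239, 236, 234 and 218 in Myc_VD (log2 difference -0.63, standard error 0.14, adjusted p = 0.129). The Myc_VD mice were within a narrow range below all Myc_WT mice. Psma3 of the same ring differed by -0.77. Psme1, part of the activator that interferon induces, was higher by 0.31 with genotypes that did not overlap, but at -0.08 in TPM as deposited. Summed over the 46 genes, the genotypes did not overlap, with 8074 to 10141 in Myc_WT and 6702 to 7894 in Myc_VD.

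Of 84 splicing genes 15 were lower and 3 higher, with a median of -0.12 (9 lower, 4 higher and -0.10 after correction, -0.19 without Myc_WT mouse 4). Lsm3 and Lsm6, partners of Lsm5 in the same ring, differed by -0.77 and -0.59, and Srsf3, a splicing factor rich in serine and arginine, was at 1577 to 2179 in Myc_WT and 1006 to 1485 in Myc_VD (-0.56). Prpf38b was at 602, 565, 511 and 582 in Myc_WT and at 1039, 937, 815 and 1087 in Myc_VD (0.77, adjusted p = 0.0844), and Prpf19, a ubiquitin ligase of the spliceosome, differed by 0.81.

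Apart from erythroid markers, histone genes had the highest median of the 66 lists, 0.65 over 68 genes. Of the 59 genes of the histone clusters that were tested, 55 had a positive difference, 40 were higher with an unadjusted p under 0.05 and 0 lower, and 15 had genotypes that did not overlap. Their median was 0.72, and it was positive under all 21 alternatives that hold these genes, with 0.68 after GC and length correction and 0.35 in TPM as deposited. By type, the median was 0.91 for 11 H3 genes, 0.82 for 17 H2A genes, 0.71 for 14 H2B genes, 0.61 for 12 H4 genes and 0.52 for 5 H1 genes (0.34 without Myc_WT mouse 2). Hist1h3c (chromosome 13, 23744973 to 23745602) was at 36, 56.6, 49.2 and 57.4 in Myc_WT and at 119, 101, 162 and 90.5 in Myc_VD (log2 difference 1.22, standard error 0.24, limma adjusted p = 0.0926). Hist1h2ab was at 322, 124, 260 and 156 in Myc_WT and at 396, 525, 454 and 447 in Myc_VD (1.17). The highest Myc_WT mouse for this gene was mouse 1, which was also highest in the sum. Summed over the 59 genes, the Myc_WT mice were at 22531, 11517, 19076 and 15096 and the Myc_VD mice at 23561, 30553, 27190 and 23038. The sums did not overlap, although Myc_WT mouse 1 came within 507 rescaled TPM of the lowest Myc_VD mouse, and the list median ranged from 0.55 without Myc_WT mouse 2 to 0.83 without Myc_WT mouse 1. The histone genes of the clusters share near-identical sequences, so the split of reads between single genes is uncertain.

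Histone variant genes, most of which are made outside S phase too and carry a poly(A) tail, had a median of opposite sign. Of 9 genes 4 were lower and 1 higher, with a median of -0.43 (2 lower, 0 higher and -0.24 after correction, -0.22 without Myc_VD mouse 2). H3f3a, which encodes H3.3, was at 2525, 3582, 3030 and 2559 in Myc_WT and at 1892, 1442, 1784 and 1136 in Myc_VD (log2 difference -0.92, standard error 0.18, adjusted p = 0.0926). H2afz, which encodes H2A.Z, differed by -0.43 with overlap of 1 Myc_VD mouse. Slbp, the protein that binds the stem loop at the end of mRNAs of the clustered genes, was at 285, 329, 324 and 278 in Myc_WT and at 225, 220, 169 and 194 in Myc_VD (-0.59). In the DNA replication list, to which Slbp belongs, 10 of 63 genes were lower and 1 higher, with a median of -0.12 (-0.21 without Myc_VD mouse 1). Gins4, a subunit of the replicative helicase, was at 80.9, 90.6, 72.4 and 66.4 in Myc_WT and at 42, 27.1, 25.4 and 38.1 in Myc_VD (-1.22, adjusted p = 0.0926), and Pole4, a subunit of DNA polymerase epsilon, differed by -1.12. Histone genes of the clusters and replication genes are both used in S phase, and here they had medians of opposite sign.

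**Figure D4:**
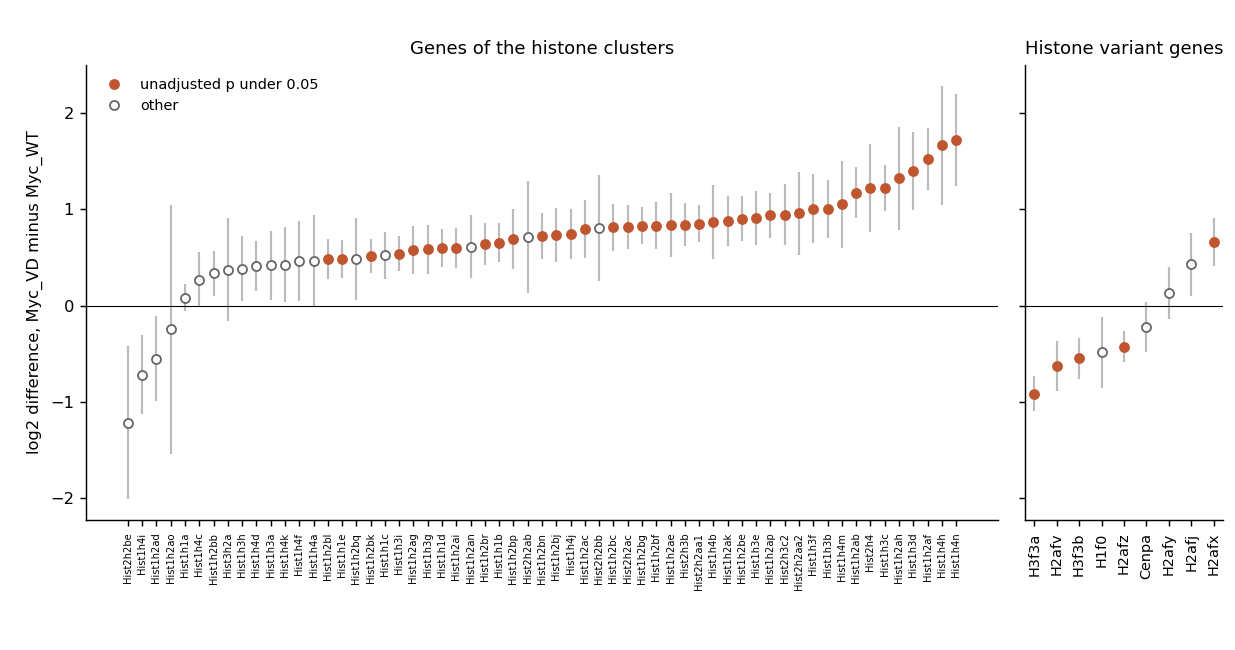
Log2 difference of each tested histone gene, with bars for 1 standard error, for 59 genes of the histone clusters (left, on rescaled TPM) and 9 variant genes (right). Filled points have an unadjusted p under 0.05; 40 of the 59 clustered genes are filled and all of these are positive, while 4 of the 5 filled variant genes are negative.

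Of 194 genes of chromatin regulators in 4 lists, 138 had a positive and 56 a negative difference, 42 were higher with an unadjusted p under 0.05, 0 were lower and 33 had genotypes that did not overlap, with a median of 0.25 (0.18 after correction, when 31 were higher and 0 lower), although the median was -0.09 in TPM as deposited, or 0.25 relative to all genes there. The summed level was 18976, 16836, 17528 and 16156 in Myc_WT and 21234, 20712, 20668 and 24293 in Myc_VD, so that all Myc_VD mice were above all Myc_WT mice.

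SWI/SNF and other chromatin remodelers, which move nucleosomes with the energy of ATP, had 15 of 47 genes higher, 0 lower and a median of 0.37 (0.23 after correction, 0.21 without Myc_WT mouse 4, -0.01 in TPM as deposited). Chd3, the helicase of the NuRD complex, was at 34, 24.6, 22.9 and 17.5 in Myc_WT and at 39.7, 97.3, 68.2 and 76.0 in Myc_VD (log2 difference 1.44, standard error 0.31, adjusted p = 0.126). Smarca4, the ATPase of SWI/SNF, was at 149, 86.8, 124 and 80.4 in Myc_WT and at 182, 174, 191 and 216 in Myc_VD (0.83). Chd9 and Srcap, which exchanges H2A for H2A.Z, differed by 0.62 and 0.55 with genotypes that did not overlap.

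Histone methylation enzymes had 13 of 63 genes higher, 0 lower and a median of 0.28 (0.14 after correction, -0.08 in TPM as deposited). Ehmt1, which methylates lysine 9 of H3, was at 64.2, 67.5, 62.1 and 66.6 in Myc_WT and at 103, 186, 154 and 165 in Myc_VD (log2 difference 1.18, standard error 0.21, adjusted p = 0.0844). The Myc_WT mice were nearly equal, and the lowest Myc_VD mouse was above all of them. Kdm5c, Nsd3 and Kmt2a differed by 0.77, 0.63 and 0.57. Histone acetylation and bromodomain proteins had 11 of 52 genes higher, 0 lower and a median of 0.27 (0.19 after correction, -0.08 in TPM as deposited). Brd2, a reader of acetylated histones, was at 180 to 209 in Myc_WT and at 277 to 335 in Myc_VD (0.68). Ncoa2, a coactivator of nuclear receptors, and Hdac7, a deacetylase, differed by 0.95 and 0.79. In Polycomb and DNA methylation 4 of 37 genes were higher and 0 lower, with a median of 0.19 (0.076 without Myc_VD mouse 1, -0.16 in TPM as deposited). Tet3, which oxidizes methylated cytosine, was at 68.1, 77.2, 74.5 and 62.7 in Myc_WT and at 115, 139, 153 and 165 in Myc_VD (1.00, adjusted p = 0.0875). Kdm2b was at 37.3 to 43.2 in Myc_WT and at 52.1, 258, 57.5 and 73.7 in Myc_VD, where mouse 2 stood apart.

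Genes of the MYC, MAX and MXD network had 6 of 17 higher, 0 lower and a median of 0.41 (0.26 after correction, when 3 were higher and 1 lower, and 0.02 in TPM as deposited). Apart from Myc, these were Mxd3, Mga and genes of MYC cofactors. When each mouse was left out in turn, Mxd3 kept its unadjusted p under 0.05 only without Myc_VD mouse 4. Myc lost it without Myc_WT mouse 1, 2 or 4 and without Myc_VD mouse 1 or 4. Of the 17 genes, 15 had a positive and 2 a negative difference, and Mnt was lowest (-0.84). Kat2a and Ep400 are also counted among the chromatin regulators. Mga, which competes with MYC for MAX, was at 104, 105, 111 and 123 in Myc_WT and at 150, 175, 263 and 259 in Myc_VD (log2 difference 0.89, standard error 0.21, adjusted p = 0.134). Kat2a, an acetyltransferase that MYC recruits, Ep400 and Trrap differed by 0.85, 0.53 and 0.64, and only Trrap overlapped between the genotypes. Their summed level was 1179 to 1313 in Myc_WT and 1398 to 2136 in Myc_VD.

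B cell transcription factors had 16 of 44 genes higher and 1 lower, with a median of 0.34 (0.26 after correction), although -0.04 in TPM as deposited. Foxp1, which B cells lower when they enter the GC, was at 409, 368, 297 and 333 in Myc_WT and at 574, 652, 503 and 605 in Myc_VD (log2 difference 0.73, standard error 0.15, adjusted p = 0.113). Tcf3, which encodes E2A, was at 123, 88.3, 106 and 78.0 in Myc_WT and at 159, 185, 166 and 179 in Myc_VD (0.82). Bcl6, the factor that GC B cells need, was at 333 to 380 and 434 to 467, 0.35 higher without overlap but -0.04 in TPM as deposited. Pou2f2, which encodes OCT2, differed by 0.84 with overlap. Hhex, a factor of memory B cell formation, was at 15.5, 27.1, 29.0 and 41.5 in Myc_WT and at 14.6, 2.10, 7.71 and 12.6 in Myc_VD (-1.67). It was the 1 gene of the list that was lower.

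**Figure D5:**
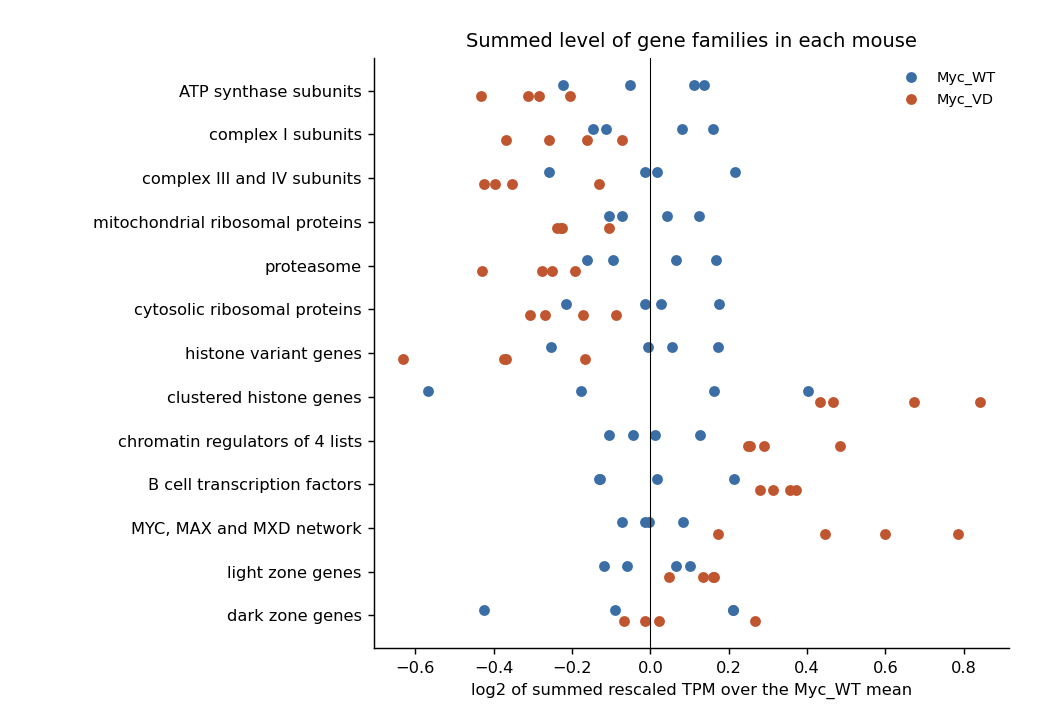
Summed rescaled TPM of 13 gene families in each mouse, as log2 of the ratio to the Myc_WT mean, with Myc_WT in blue and Myc_VD in orange. The genotypes do not overlap for the proteasome, the clustered histone genes, the chromatin regulators, the B cell transcription factors and the MYC network, and they overlap for the other 8; on TPM as deposited the medians of the chromatin regulators (-0.09), B cell transcription factors (-0.04), light zone genes (-0.20) and dark zone genes (-0.34) are below 0.

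Genes of the LZ program had 10 of 36 higher and 0 lower, with a median of 0.14 (0.20 after correction, 0.24 without Myc_WT mouse 2), although -0.20 in TPM as deposited, or 0.13 relative to all genes there. Il21r, the receptor for IL-21 from T follicular helper cells, was at 152, 120, 115 and 144 in Myc_WT and at 175, 285, 299 and 239 in Myc_VD (log2 difference 0.89, standard error 0.20, adjusted p = 0.129). Fcer2a, which encodes CD23, was at 352 to 435 in Myc_WT and 439 to 589 in Myc_VD (0.41), and Cd72, a coreceptor of the BCR, differed by 0.72 with overlap. The summed levels of the list overlapped, at 6364 to 7415 in Myc_WT and 7139 to 7737 in Myc_VD. The DZ list had 4 of 30 genes higher and 2 lower and a median of 0.03, or 0.01 relative to all genes, and the median was -0.11 without Myc_WT mouse 4 and 0.14 without Myc_WT mouse 1. Of its genes, Mki67, a marker of cycling cells, differed by 0.54 with overlap. Naive and memory B cell markers had 5 of 20 higher and 1, Hhex, lower, with a median of 0.30 (-0.11 in TPM as deposited). Of 13 plasma cell markers 8 had a positive and 5 a negative difference, with a median of 0.06 (-0.0049 without Myc_VD mouse 1, -0.28 in TPM as deposited) and sums that overlapped, and 3 were lower and 0 higher at an unadjusted p under 0.05. The 3 were Mzb1, a chaperone of immunoglobulin assembly, at 269 to 461 in Myc_WT and 177 to 233 in Myc_VD (-0.90), Eaf2, an elongation factor (-0.98), and Jchain, the joining chain of IgM and IgA (-0.71).

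Of 56 genes of BCR signaling, 10 were higher and 1 lower, with a median of 0.25 (0.15 after correction, when 6 were higher and 3 lower, and -0.14 in TPM as deposited). Itpr2, a channel that releases calcium from the endoplasmic reticulum, was at 97.2, 94.3, 78.7 and 81.3 in Myc_WT and at 132, 195, 159 and 203 in Myc_VD (log2 difference 0.95, standard error 0.19, adjusted p = 0.112). Blnk, the adaptor that links SYK to calcium release, differed by 0.46 with genotypes that did not overlap. In CD40 and NF-kB signaling 5 of 41 were higher and 0 lower, with a median of 0.17 (0.14 after correction, when 1 was higher, 0.28 without Myc_VD mouse 1, and -0.21 in TPM as deposited). Nfkb1 was at 88.9 to 118 and 126 to 172 (0.47), Nfkb2 at 28.0 to 33.5 and 36.7 to 66.6 (0.60), and the inhibitor Nfkbie differed by 0.58, all 3 with an unadjusted p under 0.05 that was not kept without Myc_WT mouse 1 or mouse 3. Nfkb1 also lost it without Myc_VD mouse 1, and Nfkbie without Myc_WT mouse 4 or Myc_VD mouse 3 or 4. Nfkb2 also lost it without Myc_WT mouse 2 or 4 and without Myc_VD mouse 1 or 3. Immediate early genes had 7 of 30 higher and 1 lower, with a median of 0.42 (0.25 after correction, 0.27 without Myc_VD mouse 4). Jun was at 13.5, 8.80, 6.71 and 9.08 in Myc_WT and at 11.2, 25.7, 24.8 and 51.1 in Myc_VD (1.33), Fos differed by 0.90 and Gadd45g by 1.10. Gadd45b, which NF-kB induces, was at 96.2, 93.9, 85.6 and 84.0 in Myc_WT and at 54.7, 46.2, 69.3 and 50.3 in Myc_VD (-0.71), opposite to Gadd45g.

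Antigen presentation genes did not move together. Of 21 genes of MHC class II presentation 2 were higher and 4 lower, with a median of -0.11 that turned to 0.02 without Myc_VD mouse 2. Cd74, the invariant chain that fills the groove of class II molecules until antigen is loaded, was the most abundant gene of 7 of the 8 libraries, at 20978, 12747, 15769 and 13834 in Myc_WT and at 22754, 23597, 23989 and 22076 in Myc_VD (log2 difference 0.57, standard error 0.15, adjusted p = 0.175). H2-Aa, a chain of the class II molecule itself, was at 8220, 8038, 8918 and 7700 in Myc_WT and at 7380, 6449, 6735 and 4885 in Myc_VD (-0.38). The genotypes did not overlap for either gene, and they lay in opposite order. H2-Eb1 and H2-DMa differed by -0.43 and -0.46, and Ciita, the regulator of all of these, by 0.46.

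In the cell cycle lists, cyclins, CDKs and E2F had 1 of 42 higher, 0 lower and a median of 0.00 (-0.11 without Myc_VD mouse 1 and 0.085 without Myc_VD mouse 3). The 1 gene was Rbl2, a pocket protein of quiescent cells, at 50.4, 37.2, 44.0 and 35.2 in Myc_WT and at 72.4, 88.1, 70.3 and 73.9 in Myc_VD (0.86, adjusted p = 0.147). CDK inhibitors and quiescence factors had 5 of 25 higher and 1 lower, with a median of 0.13 (0.02 without Myc_VD mouse 3, -0.25 in TPM as deposited). Cdkn1b, which encodes the CDK inhibitor p27, was at 8.49, 8.93, 6.82 and 10.2 in Myc_WT and at 11.2, 44.4, 13.5 and 19.1 in Myc_VD (1.07). Cdkn1a, which encodes the inhibitor p21, was at 18.4, 10.6, 16.3 and 10.1 in Myc_WT and at 27.3, 0, 21.2 and 4.39 in Myc_VD (-0.92, unadjusted p = 0.312 from limma, and 0.06 without Myc_VD mouse 2), with Myc_VD mice on both sides of Myc_WT, and it was picked with its values in view. The 1 lower gene was Btg3, an antiproliferative protein (-1.92), with overlap. Of 97 genes of the mitotic spindle and kinetochore 9 were higher and 7 lower (median 0.04, -0.064 without Myc_WT mouse 4 and 0.12 without Myc_VD mouse 2). Cenpe, a long motor protein of the kinetochore, differed by 0.55, and Cks1b and Cks2, small partners of the CDKs, by -0.79 and -0.67. Cell death genes of the BCL2 and death receptor list had 4 of 32 lower and 0 higher, with a median of -0.18 (-0.28 without Myc_VD mouse 4 and -0.11 without Myc_VD mouse 2). Casp6, an executioner caspase, was at 23.3 to 51.5 in Myc_WT and at 12.9 to 20.9 in Myc_VD (-1.17), and Bax, which opens the outer mitochondrial membrane, differed by -0.71 with overlap.

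In sterol and fatty acid synthesis single genes were called in both directions, with 5 of 37 genes higher, 3 lower and a median of -0.06 (1 higher, 2 lower and -0.08 after correction), and the median was -0.17 without Myc_VD mouse 1 and 0.12 without Myc_VD mouse 3. Srebf1 was at 43.7, 64.7, 48.0 and 60.0 in Myc_WT and at 116, 215, 120 and 65.0 in Myc_VD (1.13, adjusted p = 0.183). Its relative Srebf2 differed by 0.44 and Acly, which makes cytosolic acetyl-CoA, by 0.59. Scd2, a fatty acid desaturase, was at 59.8 to 67.3 and 30.4 to 55 (-0.59), and Cyp51 and Stard4 differed by -0.54 and -0.75 with overlap. Srebf2, Acly, Scd2, Cyp51 and Stard4 each lost an unadjusted p under 0.05 in more than 1 of the fits without 1 mouse.

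Markers of other cell types were sparse except for those of erythroid cells. Of 9 tested erythroid genes of 14, 5 were higher, 0 lower and 0 without overlap, with a median of 1.32. Hba-a2, an alpha globin, was at 24.7, 29.0, 19.4 and 12.0 in Myc_WT and at 72.5, 165, 107 and 22.3 in Myc_VD. Myc_VD mice 1 to 3 were above Myc_WT, and mouse 4 was within its range. The summed level of the list was 295 to 529 in Myc_WT and 816, 1106, 987 and 346 in Myc_VD, at most 0.111% of the protein-coding total. Its part in the other differences was not tested. Of 19 T cell markers 2 were tested (Cd247 and Lck), of 24 myeloid markers 5, and of 17 markers of platelets, NK cells and stroma 1 (Pecam1), and of these 8 genes Ctss, which B cells also express, was the 1 gene at an unadjusted p under 0.05 (-0.67).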

How the data were processed

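RNA of sorted LZ GC B cells of 4 Myc_WT and 4 Myc_VD mice was sequenced, 1 library per mouse. The authors aligned reads with STAR 2.5.2a, estimated transcript levels with strand-specific RSEM 1.3.0 (Ensembl, GRCm38), and deposited 1 table of TPM with 2 decimals. DESeq2 1.18.1 is named in the submitters' processing notes, and the counts it needs were not used here. TPM hold no depth, so no counting error is given. All 11 columns match a sample's label, and 0 columns of samples were left unused.

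Symbols, biotypes, coordinates and transcript lengths came from GENCODE M21 (GRCm38). Protein-coding nuclear genes were rescaled to 1000000 per library, which sets aside ribosomal, mitochondrial and other noncoding RNA. Genes with a mean of at least 5 entered a two-sided limma test (version 3.58.1, R 4.3.3, trend in eBayes) of the 8 LZ libraries on log2(rescaled TPM + 1), on which changes of low genes come out too small, with Benjamini-Hochberg adjustment at 0.05. Values from TPM as deposited were tested on the same log2 scale. Exact permutation of single genes ran over 70 groupings (Python 3.11.15, numpy 2.4.6, pandas 2.3.3, scipy 1.17.1, with matplotlib 3.10.9 for plots). On simulated data of 8987 genes for this comparison, 23 of 100 genes changed by 1 on the log2 scale and 60 of 100 changed by 2 were called.

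The comparison and the 66 gene lists were chosen with earlier results of these data known. Lists are described by counts and medians, with no set test. The genes named were Myc, Max, Zbtb17 and the sort markers, the 15 genes with the largest difference in each direction among those past the threshold or, where fewer pass, with an unadjusted p under 0.05 and no overlap, the members of each list with the smallest p, at most 4 in each direction, and genes at the ends of a range. Other genes are named as chosen after their values were seen, and some genes that the rule gives are not reported here. Alternatives were TPM as deposited, median ratio scaling, quantile normalization, a pseudocount of 0.1, minimum means of 1 and 20, no filter, limma without a trend and with array weights, memory B cell libraries added to the fit, removal of ribosomal protein and histone genes, all nuclear genes but ribosomal RNA kept, GC content and length correction (loess, span 0.5) and each library left out in turn. Removal of Gm10800, Gm10801 and Lars2 was chosen after seeing the data. Promoters came from RefSeq (GRCm38.p6).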

Additional observations from a re-analysis of the deposited data

Results flagged for a closer look

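In 15 of 326 groups of 4 mice checked, 1 mouse stood far from the other 3; chance gives about 1 in 20 groups. The predicted genes Gm10800 and Gm10801 were high in Myc_WT mouse 4, at 62911.6 and 11114.2 rescaled TPM against at most 1763 and 342 in the other Myc_WT mice, and this library had 13.6% of its protein-coding total in its 10 most abundant genes, against at most 7.44% in the others of the group. In Myc_VD mouse 4 they were at 935.776 and 214.168, against at most 254 and 34.9. Myc_VD mouse 4 also had the highest sums of chromatin regulators, 24292.9 against at most 21234, and of SWI/SNF and chromatin remodelers, 8010.61 against at most 7087, and the genotypes did not overlap with or without it. Myc_VD mouse 3 stood apart for Sdc1, at 15.2842 with 0 in the other 3, and for Mrps18c, at 15.739 with at least 41.3 in the others. Myc_VD mouse 2 was the highest for Irf2 (412.118, next 349.8), Ncoa2 (161.819, next 115) and Kdm2b (258.086, next 73.7). Myc_WT mouse 2 was the highest for Psma3 (666.455, next 461) and Rps27l (274.447, next 211). Myc_VD mouse 1 had the highest sum of mitochondrial ribosomal proteins of its group, 4925.93 against at most 4534, and was the 1 mouse that reached the range of Myc_WT. What set these mice apart was not tested.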

How the results depend on the processing

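No paired analysis was possible because the labels give the genotypes no shared replicate numbers. The number of genes past the adjusted threshold, 1 of 8987 (0 higher and 1 lower), was 19 in TPM as deposited (0 higher, 19 lower), 19 under quantile normalization (4 and 15), 6 with a mean of at least 1 (2 and 4), 5 with a mean of at least 20 (3 and 2), 12 with array weights (5 and 7), and 0 with no filter, with memory B cell libraries added to the fit, with ribosomal protein and histone genes left out and with GC content and length correction. It was 0 to 12 with each mouse left out in turn (0 to 5 higher, 0 to 7 lower), with 9 without Myc_VD mouse 1, 12 without Myc_VD mouse 2 and 0 without any other. Rpl30 passed in 11 of the 21 alternatives that hold it, with an adjusted p between 0.00149 and 0.186, and without a trend the 1 gene called was Zfp781 (adjusted p = 0.0133). For Zfp781 a difference down was fixed by the filter. The fit without ribosomal protein and histone genes does not hold Rpl30, so its call was lost there by construction. At an unadjusted p, 659 genes higher and 535 lower became 65 and 1541 in TPM as deposited and 280 and 180 with memory B cells in the fit, and the lower genes ranged from 293 (without Myc_WT mouse 2) to 643 as mice were left out. The memory B cell libraries carry the mouse names of Myc_WT mice 1, 3 and 4, and that fit has no term for the mouse. The share of higher genes among unadjusted calls, 55.2%, was 4.05% in TPM as deposited, 44.2% under quantile normalization and 47.7% under median ratio scaling, and between 48.1% and 48.6% with no filter, with ribosomal protein and histone genes left out, with all nuclear genes kept and without Myc_VD mouse 4. With Gm10800, Gm10801 and Lars2 left out the share was 50.8%, from 611 genes higher and 592 lower. Genes without overlap, 761 (455 higher, 306 lower), were 57 higher and 853 lower in TPM as deposited; with a mouse left out they were 874 to 1413 (523 to 912 higher, 331 to 597 lower), since fewer mice overlap less often by construction. Of the genes that the naming rule gave, 286 had an unadjusted p under 0.05, against 158 in TPM as deposited and 147 with memory B cells in the fit. List medians that changed sign in TPM as deposited were those of messenger RNA decay (-0.17), CDK inhibitors and quiescence factors (-0.25), B cell transcription factors (-0.040), light zone genes (-0.20), germinal center B cell markers (-0.27), naive and memory markers (-0.11), T cell markers (-0.51), myeloid markers (-0.23), B cell receptor signaling (-0.14), CD40 and NF-kB (-0.21), RGS and G protein signaling (-0.28), homing receptors (-0.17), cytokine receptors (-0.17), histone methylation (-0.079) and acetylation (-0.082), SWI/SNF (-0.0145), Polycomb (-0.16) and all chromatin regulators (-0.086), and among genes Psme1 (-0.075) and Bcl6 (-0.040). With a mean of at least 20, the T cell markers, of which Lck alone was left, were at -0.13, and the myeloid markers left were at -0.090. The 5 myeloid markers were at -0.061 with a pseudocount of 0.1 and between -0.12 (without Myc_VD mouse 4) and 0.45 with 1 mouse left out. MHC class II genes lay between -0.18 and 0.017 (without Myc_VD mouse 2). Of 127 genes of the text with an unadjusted p under 0.05, 7 to 17 lost it without 1 mouse and 0 changed sign; these were Myc, Mxd3, Psme1, Nfkb1, Nfkb2, Nfkbie, Bcl6, Cdkn1b, Slc19a1, H2afz, Fcer2a, Cd72, Mki67, Cenpe, Ciita, Srebf2, Acly, Scd2, Cyp51, Stard4, Fos, Gadd45g, Btg3 and Trrap. The cause of these changes was not tested, and depth is unknown.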

Other observations

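Genes of the actin and tubulin cytoskeleton, which B cells use to move and to form synapses, were called in both directions, with an unadjusted p under 0.05 for 7 of 74 that were higher and for 12 that were lower, and a median of 0.02 (-0.038 without Myc_WT mouse 4 and 0.082 without Myc_WT mouse 3). The lower genes included small actin regulators. Arpc2, a subunit of the ARP2/3 complex that branches actin filaments, was at 1388, 1300, 1585 and 1150 rescaled TPM in Myc_WT and at 1084, 731, 866 and 825 in Myc_VD (log2 difference -0.63). Arpc5 (-0.58) and Actr3 (-0.47) of the same complex and Stmn1, which destabilizes microtubules (-0.73), were also lower without overlap of the genotypes. Myh9, the heavy chain of nonmuscle myosin II, was at 133, 128, 175 and 114 in Myc_WT and at 236, 221, 200 and 263 in Myc_VD (0.75), and Diaph2, a formin, differed by 1.00, also without overlap. In TPM as deposited the median of the list was -0.33, the same as that of all genes. After correction for GC content and length 4 genes were higher and 7 lower.

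In the endoplasmic reticulum 6 of 66 genes were lower and 0 higher (median -0.08, -0.15 without Myc_VD mouse 2). Spcs2, a subunit of the signal peptidase, was at 158, 152, 157 and 140 in Myc_WT and at 77.9, 48.7, 86.0 and 70.6 in Myc_VD (-1.12, adjusted p = 0.0875 from limma), and Sec61b of the translocation channel (-0.57) and Ssr4 of the complex beside it (-0.92) were lower without overlap. Among translation factors 3 of 62 were higher and 7 lower. Eif4g1, the scaffold of the cap-binding complex, was at 110 to 126 in Myc_WT and 159 to 241 in Myc_VD (0.65), whereas Eef1b2, which recharges the elongation factor, was at 1227 to 1408 and 780 to 1104 (-0.53), and Eif3k differed by -0.52. In the autophagy and lysosome list Gabarapl2, a protein of the autophagosome membrane, was at 98.1, 89.6, 65.5 and 64.3 in Myc_WT and at 33.1, 22.9, 17.7 and 41.4 in Myc_VD (-1.48, adjusted p = 0.0926). Of 43 interferon-stimulated genes 1, Ifi203, was higher (0.95) and 0 lower, and the median was 0.08 (-0.0087 without Myc_WT mouse 3, -0.37 in TPM as deposited).

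Among 238 zinc finger protein genes 14 were higher and 1, Zfp781, was lower, with a median of 0.03 (0.12 without Myc_VD mouse 2). The direction of Zfp781 was fixed by the filter. Among solute carriers 4 of 130 were higher and 9 lower. Slc25a5, which exchanges ADP and ATP across the inner mitochondrial membrane, was at 880, 992, 1082 and 829 in Myc_WT and at 812, 568, 614 and 627 in Myc_VD (-0.53), and Slc25a3, the mitochondrial phosphate carrier, differed by -0.59, both without overlap. Slc41a1, a magnesium transporter, was at 14.6 to 20.2 and 30.7 to 48.2 (1.22).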
